A study of Mus musculus with 18 samples.

Results

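Capillary endothelial cells of mouse skin were picked out of single-cell 3′ mRNA libraries and compared between skin that was stretched for 1 to 4 days and skin that was not. A cell was taken as capillary when it carried at least 2 transcripts (unique molecular identifiers, UMIs) of Rbp7 and at least 3 UMIs from at least 2 of the genes Pecam1, Cdh5, Kdr, Flt1 and Emcn. It also had to carry no UMI of the leukocyte gene Ptprc, fewer than 2 UMIs of the lymphatic genes Prox1 and Mmrn1, fewer than 2 UMIs of the venular genes Ackr1 and Selp, and less than 1% of its UMIs from Col1a1 and Col1a2. The rule found 643 cells among 47251 kept cells, 414 in the control arm and 229 in the expanded arm. The study has 10 mRNA libraries, 5 per arm, each made from a pool of mice: day 1 and day 2 in sequencing rounds 1 and 2, and day 4 in round 1. Every mouse, controls included, had surgery with an incision close to the tail and a tunnel under the skin. Mice of the expanded arm received a hydrogel expander in that tunnel and control mice received none. Living cells were sorted as negative for the dye DAPI. Strain, sex and age are not given in the sources used here, and neither is a transgene.

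Capillaries are the narrowest vessels, where oxygen, glucose and lipids pass into the tissue. Their endothelial cells carry proteins for lipid uptake: GPIHBP1 brings lipoprotein lipase to the lumen, CD36 takes up long-chain fatty acids, FABP4 and RBP7 bind fatty acids and retinol inside the cell, and AQP7 lets glycerol through. Venules just downstream carry the leukocyte selectin P (Selp) and the chemokine receptor ACKR1 instead, and are where leukocytes leave the blood. New capillaries sprout from existing ones under VEGF, whose receptors are KDR, FLT1 and the co-receptor NRP1.

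Libraries held 17726739 to 75470722 gene UMIs and 1927 to 8312 kept cells, with ranges that overlapped between the arms. Pairs of libraries shared at most 18 cell barcodes, or 0.413% of the smaller library. For round 2 of day 1, the titles of the control mRNA and hashing samples are interchanged, so the library type decided which was which. Where levels are given, they are CPM (UMIs of a gene scaled to a total of 1e6) of the capillary cells' summed UMIs in a library, listed in the order day 1 rounds 1 and 2, day 2 rounds 1 and 2, and day 4. The capillary cells of a library gave 140970 to 863804 UMIs in the control arm and 146183 to 899354 in the expanded arm. The cells are shares of pooled mice, and each arm has 1 library on day 4.

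Capillary cells numbered 32, 164, 22, 62 and 134 in the control libraries. In the expanded libraries they numbered 54, 84, 18, 11 and 62. They made up 0.549% to 1.97% of kept control cells and 0.531% to 1.83% of kept expanded cells, so the ranges overlapped nearly fully. Among 2659 blood endothelial cells, the share passing the rule was 21.6%, 34.5%, 19.8%, 23.9% and 25.0% in control libraries. It was 21.5%, 17.5%, 20.9%, 18.6% and 24.2% in expanded libraries, which overlaps the control range. The capillary cells themselves were deeper in the expanded arm: their median was 6982, 4888, 4786, 6475.5 and 4982.5 UMIs in control libraries and 12215, 8224, 17241, 11833 and 12130.0 UMIs in expanded ones. The depth ranges did not overlap. A rule that asks for 2 Rbp7 UMIs admits cells with less Rbp7 when more UMIs are read. When each cell was thinned to 2000 UMIs before the rule was applied, the share of blood endothelial cells was 12.1%, 27.0%, 13.3%, 14.2% and 17.7% in control libraries. After the same thinning it was 7.98%, 5.04%, 6.02%, 4.76% and 9.56% in expanded libraries, below every control library. These shares are a description, since Rbp7 chose the cells, and whether fewer capillary cells or less Rbp7 per cell lay behind them cannot be told apart.

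**Figure D1:**
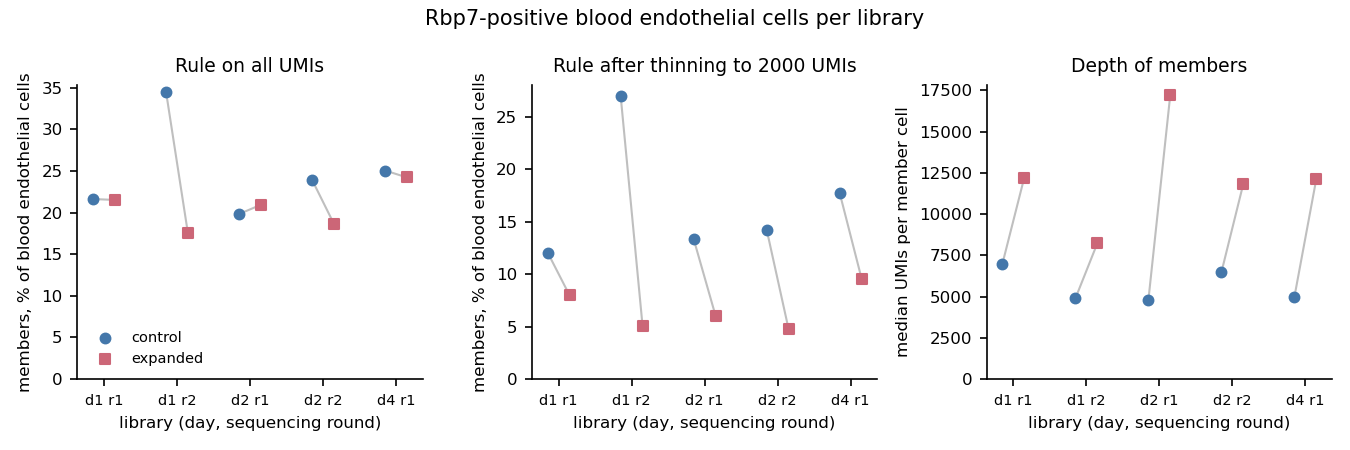
Share of blood endothelial cells that passed the capillary rule in each library (percent), the same share after every cell was thinned to 2000 UMIs, and the capillary cells' median UMIs. Each circle is a control library and each square an expanded one, with lines joining libraries of the same day and round; control and expanded shares overlap before thinning (17.5% to 34.5%) and do not after it (4.76% to 9.56% in expanded libraries).

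Rbp7, whose level the cells were chosen by, was at 1300.4, 3079, 922, 850.1 and 1566 CPM in control capillary cells. In expanded capillary cells it was at 443, 717, 277, 855 and 738 CPM. Cells with exactly 2 Rbp7 UMIs made up 14% to 35.5% of the capillary cells in control libraries and 24.2% to 38.9% in expanded ones. Just outside the rule lay 160 control and 108 expanded cells with 1 Rbp7 UMI. Cells with exactly 2 Rbp7 UMIs had 648 CPM of Cd36 and 4284 CPM of Fabp4, and those with 1 had 540.0 and 2915 CPM, so the rule draws its line through a gradient. Against 434 venular cells, which passed the same endothelial conditions with fewer than 2 Rbp7 UMIs and at least 2 UMIs of Ackr1 and Selp, the label was checked with markers that the rule does not use. Gpihbp1 and Btnl9 were higher in capillary than in venular cells in 10 of 10 libraries. Cd36, Aqp7, Cd300lg, Timp4 and Rgcc were higher in 9 of 10. Fabp4 was higher in only 5 of 10 libraries, and Aqp1, a water channel, was higher in venular cells in all 10, at 2944 CPM in control venular against 392 CPM in control capillary cells. Car4, Sgk1, Meox2 and Tcf15, also capillary markers, were left out of this check, so it rests on part of the list. The summed 13 capillary markers outside the rule did not set the types apart, but Fabp4 alone averaged 13921 CPM of that sum in control capillary cells. Control means were 18750 CPM in capillary and 18919 CPM in venular cells, and expanded means 8278.5 and 8661.9 CPM.

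The cells also carried arterial genes. Among 12 arterial markers, the connexin Gja4, the transcription factor Sox17, Sema3g, Efnb2, Bmx and Cxcl12 were above the venular level in 10 of 10 libraries. Gja5, Hey1, Fbln5, Fbln2, Stmn2 and Unc5b, the rest of the list, are not given gene by gene here. The 12 arterial markers summed to 2008 to 4320 CPM in control capillary cells and 1488 to 4076 CPM in expanded ones, against 900.2 to 1424 and 411 to 1014 CPM in venular cells. Cxcl12 alone averaged 1560 CPM of the mean sum of 3423.5 CPM in control capillary cells. Arterial and arteriolar cells with Rbp7 were therefore not separated from capillary cells here. Of the venous markers, Selp was at most 7.09 CPM and Ackr1 at most 4.63 CPM, which the rule ensures. The other 9 summed to 731 to 1123 CPM in control and 1574 to 2309 CPM in expanded capillary cells. Among these 9, Sele was at 0 to 19.8 CPM against a control mean of 1686 CPM in venular cells. Lymphatic markers summed to at most 39.6 CPM, immune markers to at most 59.3 CPM and red blood cell markers to at most 42.5 CPM. Keratinocyte markers summed to 21.3 to 822 CPM in control and 10.4 to 482 CPM in expanded capillary cells, against 604 to 2363 and 1878 to 10226 CPM outside the endothelial gate. Adipocyte markers summed to 2547 CPM in control day 2 round 1, to 4.57 CPM in control day 2 round 2 and to 0 to 1.37 CPM in the other libraries. Fibroblast markers summed to 194 to 1511 CPM in control capillary cells and 55.4 to 206 CPM in expanded ones, and outside the endothelial gate the same list summed to 13901 to 36509 CPM in control and 3986 to 13480 CPM in expanded libraries. Pericyte markers summed to 116 to 775 CPM in the control and 41.0 to 620.5 CPM in the expanded arm. The part that RNA of these cell types played in the results was not tested.

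The comparison of the arms asked which genes differ in capillary cells of stretched skin. UMIs were summed per library, and 6299 genes were tested by edgeR's quasi-likelihood method, which allowed for the day. At an adjusted p of at most 0.05 (Benjamini-Hochberg), 108 genes (1.71% of those tested) differed between the arms. Of these, 45 genes (0.714%) were higher in the expanded arm and 63 genes (1.00%) were lower. The direction was the same in all 5 pairs of libraries for 98 of the 108 genes. These genes were called from the same libraries, so this count is a description and no separate support. The largest fall was that of Col3a1, a fibroblast collagen. Aqp7, Angptl4, Btnl9 and Pltp were among the other lower genes, and Cmah, Ehd3, Slco2a1 and Mcam among the higher ones. Without both expanded day 2 libraries, which held 18 and 11 cells, the count was 35 genes, and with the rule applied after thinning to 2000 UMIs it was 3 genes over 8 libraries. Of the genes named here, Aqp7, Pltp, Cxcl12, Gbp2, Igtp, Hspb1, Hspa1a, Rbm3, Cirbp, Slco2a1, Mcam, Cmah, Col3a1 and Cd74 still passed without the expanded day 2 libraries, and the others did not. With all blood endothelial cells and no Rbp7 condition, 881 genes passed.

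Aqp7, the glycerol channel (chromosome 4, 41033074 to 41048139, minus strand, mm10), was lower in the capillary cells of stretched skin. Its level was 35.6, 78.7, 35.5, 32.0 and 99.3 CPM in control libraries and 4.10, 1.29, 0, 27.4 and 16.7 CPM in expanded libraries. Every control library lay above every expanded one. Its fold change on the log2 scale was -3.16 ± 0.48 (SE), with an adjusted p of 0.0049 by edgeR, and the gene passed in all 10 fits that left out 1 library. In all blood endothelial cells, where Rbp7 plays no part, it was -3.35 with an adjusted p of 0.0070. With the rule applied after thinning it was -2.22 with an adjusted p of 0.15.

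Btnl9, a butyrophilin-like membrane protein of capillary endothelium (chromosome 11, 49165585 to 49187159, minus strand), was at 75.1, 323, 106, 103 and 183 CPM in control libraries. In expanded libraries it was at 9.56, 38.7, 27.7, 54.7 and 67.8 CPM, below every control value. The log2 fold change was -2.29 ± 0.44 (SE; adjusted p 0.017 by edgeR). The call was lost without expanded day 1 round 2 or expanded day 2 round 1, and the log2 fold change lay between -2.64 and -1.56 over the fits that left out 1 library. In all blood endothelial cells it was -2.37 (adjusted p 0.0051 by edgeR). Btnl9 did not pass with the rule applied after thinning (-2.22, adjusted p 0.14 by edgeR) or with sums per mouse (-1.19, adjusted p 0.55 by edgeR). Rgcc, a cell cycle regulator abundant in capillaries, was at 589, 1493, 943, 219 and 1239.7 CPM in control libraries and 225, 302, 173, 253 and 368 CPM in expanded ones. The ranges overlapped through control day 2 round 2 alone, which lay below its own expanded pair. The log2 fold change of Rgcc was -1.83 ± 0.35 (SE; adjusted p 0.017 by edgeR). It passed in 4 of 10 fits with 1 library left out, namely those without control day 1 round 1, either control library of day 2, or expanded day 2 round 2. With the rule applied after thinning, Rgcc was at -2.07 (adjusted p 0.093 by edgeR).

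Angptl4, a secreted inhibitor of lipoprotein lipase, was at 150.2, 384, 411, 77.7 and 249 CPM in control libraries. In expanded libraries it was at 35.5, 47.7, 3.46, 88.9 and 70.0 CPM, and the only overlap was in the day 2 round 2 pair. By the fit, Angptl4 changed by -2.53 ± 0.49 on the log2 scale (SE; adjusted p 0.018 by edgeR). It was lost without expanded day 1 round 1, control day 1 round 2, expanded day 1 round 2 or expanded day 2 round 1, with values from -2.79 to -2.15 over all such fits. The highest control value came from day 2 round 1, the library with adipocyte markers. Pltp, a phospholipid transfer protein, was at 395, 395, 390.1, 165 and 316 CPM in control and 171, 82.5, 27.7, 144 and 93.4 CPM in expanded libraries. Only control day 2 round 2 reached down into the expanded range. Its log2 fold change was -1.79 ± 0.33 (SE; adjusted p 0.014 by edgeR), and the call was lost without expanded day 1 round 2 or either day 4 library, with values from -2.03 to -1.57. Neither gene passed edgeR's test with the rule applied after thinning, at -1.77 for Angptl4 (adjusted p 0.24) and -1.56 for Pltp (adjusted p 0.19).

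The best-known genes of fatty acid uptake did not pass the test in the capillary cells. Cd36 was at 1019.7, 3059, 1483, 1067 and 2066 CPM in control libraries and 455, 644, 259.6, 1539 and 1075 CPM in expanded ones. It was lower in 4 of 5 pairs and higher in the day 2 round 2 pair, whose expanded library held 11 capillary cells. Its log2 fold change was -1.25 with an adjusted p of 0.12 by edgeR. Fabp4 was at 8296, 26479, 12598, 5176 and 17055 CPM in control libraries and 1513, 2908, 2129, 12348 and 8519 CPM in expanded ones, and again the day 2 round 2 pair went the other way. Its log2 fold change was -1.57 (adjusted p 0.16 by edgeR). In all blood endothelial cells, Cd36 (-1.63, adjusted p 0.012) and Fabp4 (-1.98, adjusted p 0.012) both fell by edgeR's test. Gpihbp1, the anchor of lipoprotein lipase, was at 324, 661, 397, 171 and 514 CPM in control and 164, 462, 284, 417 and 497 CPM in expanded capillary cells. Its ranges overlapped widely, with a log2 fold change of -0.26 ± 0.32 (SE; adjusted p 0.75 by edgeR).

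Of 13 tested capillary markers outside the rule, 3 fell (Aqp7, Btnl9, Rgcc) and none rose, with a median log2 fold change of -1.20, against 0.00 over all genes tested, of which 1.00% fell. Of 18 tested genes of fatty acid uptake and transport, 2 fell (Aqp7, Angptl4) and none rose, 16 had negative values and the median was -0.71, against the same 1.00%. The transcription factors Pparg (-1.13, adjusted p 0.067) and Tcf15 (-1.46, adjusted p 0.058), which drive lipid handling in capillaries, did not pass edgeR's test. With the rule applied after thinning, the capillary markers had a median of -1.07 and no gene that passed. In venular cells the same 13 markers summed to 13641 to 22175 CPM in control and 5083 to 12039 CPM in expanded libraries, without overlap. The lower sum was therefore not particular to capillary cells. Fabp4 averaged 13921 CPM of the mean sum of 18750 CPM in control capillary cells. The sum therefore does not show whether the other markers fell in venular cells. Of 4657 genes tested in venular cells, 92 passed edgeR's test of expansion, among them Fabp4, Car4, Angptl4, Mcam, Pkm, Rab5c, Rbm3 and Ctla2b. Aqp7, Btnl9 and Rgcc were not among the 92.

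**Figure D2:**
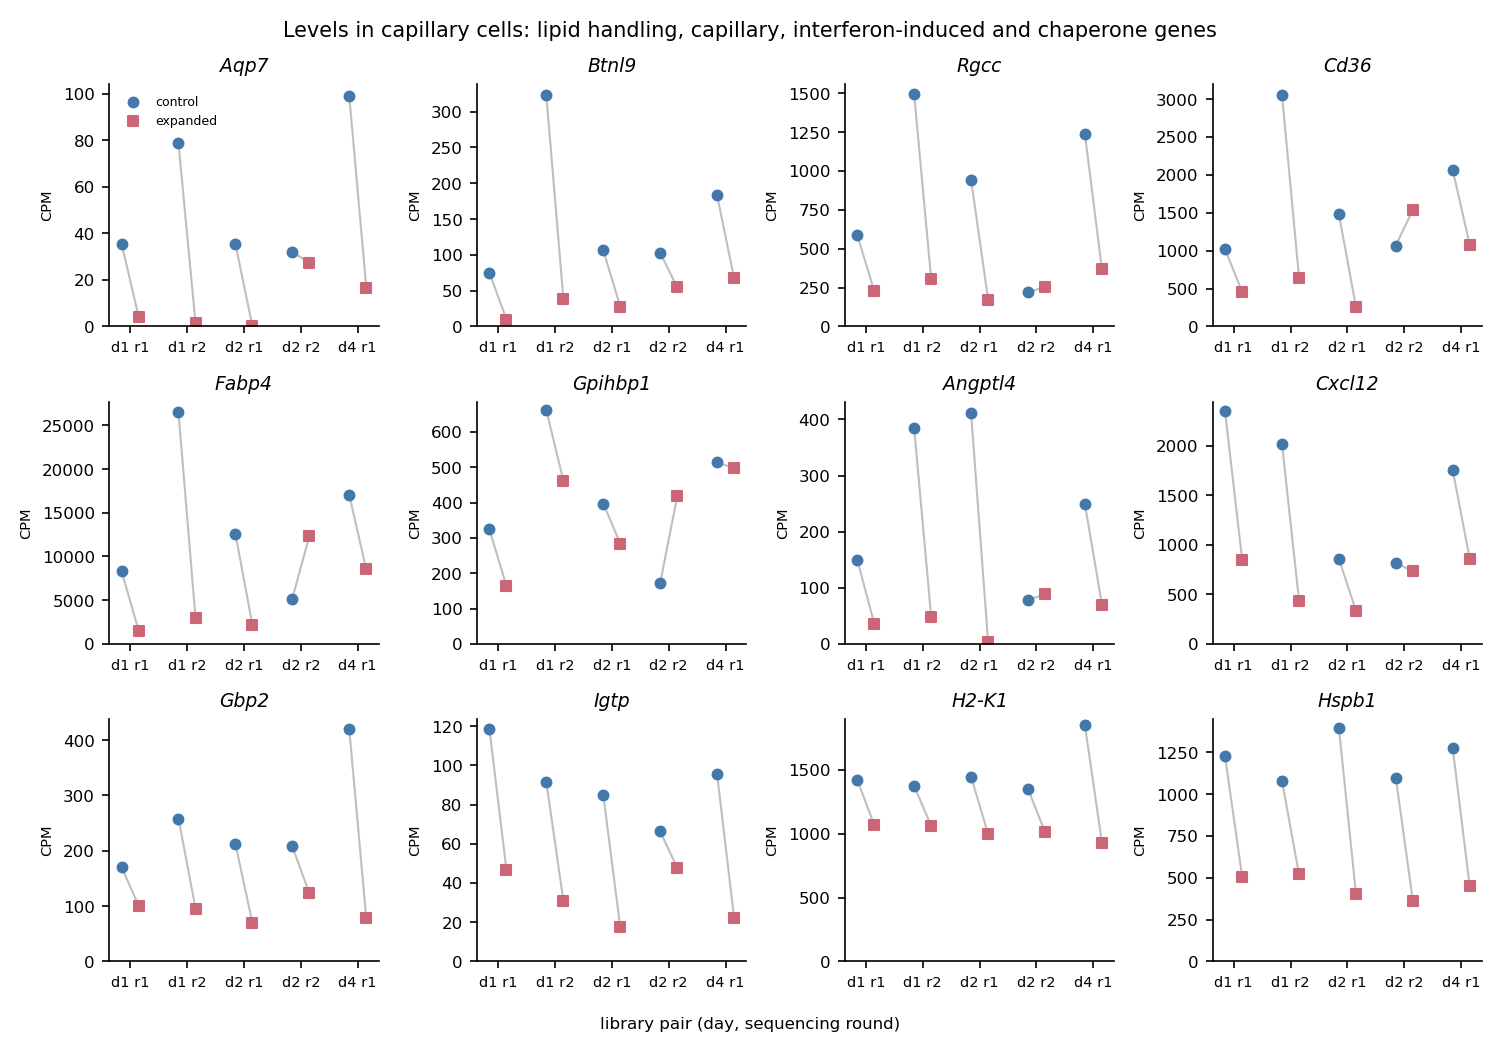
Level of 12 genes (CPM of the summed UMIs of capillary cells) in the 5 control libraries (circles) and 5 expanded libraries (squares), with lines joining libraries of the same day and round. Aqp7 and Btnl9 lie lower in every expanded library than in any control library, while Cd36, Fabp4 and Gpihbp1 overlap and are higher in the expanded library in the day 2 round 2 pair, where that library held 11 cells.

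Ligands and receptors that shape vessels were among the lower genes. Cxcl12, the chemokine that binds CXCR4 and is made by arterial and capillary endothelium (chromosome 6, 117168535 to 117181367, plus strand), was at 2348, 2021, 858, 818 and 1756 CPM in control libraries. In expanded libraries it was at 851, 436, 336, 732 and 858 CPM, so the ranges met at the lowest control libraries, both of day 2. The log2 fold change was -1.27 ± 0.25 (SE; adjusted p 0.021 by edgeR). The call held in 5 of 10 fits with 1 library left out and was lost without expanded day 1 round 1, control day 1 round 2, expanded day 2 round 1 or either day 4 library, with values from -1.52 to -1.03. Nrp1, the VEGF co-receptor, was at 221, 392, 390.1, 331 and 421 CPM in control and 154, 179, 163, 205 and 215 CPM in expanded libraries, with no overlap. The log2 fold change of Nrp1 was -1.01 ± 0.18 (SE; adjusted p 0.011 by edgeR), lost only without control day 1 round 2 (range -1.14 to -0.88). Neither Cxcl12 (-1.22, adjusted p 0.36) nor Nrp1 (-0.94, adjusted p 0.25) passed edgeR's test with the rule applied after thinning. Nrp1 was the only gene that passed among 19 tested genes of VEGF, TIE and Notch signalling, whose median was -0.15 (1.00% lower over all genes tested). Kdr and Flt1, which the rule uses, were at 397 to 581 and 1181 to 1503 CPM in control libraries, and at 270 to 438 and 1000 to 1450 CPM in expanded ones.

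Cavin2, a coat protein of caveolae, was at 462, 878, 575, 658 and 807 CPM in control and 348, 219, 86.5, 397 and 491 CPM in expanded libraries. Only expanded day 4 reached the control range. Its log2 fold change was -1.27 ± 0.30 (SE; adjusted p 0.046 by edgeR), and it passed in 3 of 10 fits with 1 library left out, those without control day 1 round 1 or either round 2 library of day 2. It was the only one of 16 tested junction and barrier genes to pass, and Cxcl12 the only arterial marker of 12, against 1.71% of all genes tested. Gja4 (0.04), Sox17 (-0.10) and Efnb2 (-0.11) had log2 fold changes near 0, and the list's median was -0.19.

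Some interferon-inducible genes, 4 of 20 tested, were lower in the capillary cells of stretched skin. Gbp2, a guanylate-binding protein of cell-autonomous defence (chromosome 3, 142620602 to 142638008, plus strand), was at 170.0, 258, 213, 208 and 421 CPM in control libraries and 101, 95.4, 69.2, 123 and 77.8 CPM in expanded ones. No expanded library reached a control value. Gbp2 had a log2 fold change of -1.54 ± 0.23 (SE; adjusted p 0.0049 by edgeR), and the call held in all 10 fits with 1 library left out. Igtp, an interferon-induced GTPase (chromosome 11, 58199556 to 58207591, plus strand), was at 119, 91.5, 85.1, 66.3 and 95.7 CPM in control and 46.4, 31.0, 17.3, 47.9 and 22.2 CPM in expanded libraries. Its ranges did not overlap either, with a log2 fold change of -1.63 ± 0.25 (SE; adjusted p 0.0049 by edgeR; passed in 10 of 10 such fits). Both also passed over all blood endothelial cells, at -1.78 for Gbp2 (adjusted p 7.6e-04) and -1.65 for Igtp (adjusted p 0.0029), and neither passed with the rule applied after thinning (-0.69 and -0.87, adjusted p 0.68 and 0.56). Gbp5 (-1.57, adjusted p 0.015) and Irf1, the interferon-regulated transcription factor (-0.95, adjusted p 0.046), also fell by edgeR. The call for Gbp5 was lost without expanded day 2 round 1 or either day 4 library (range -1.73 to -1.16), and that for Irf1 remained only without control or expanded day 2 round 2 (range -1.19 to -0.78).

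These 4 were the interferon genes that fell, and none rose, with a list median of -0.81. Over all genes tested, 1.00% fell. The summed list overlapped between the arms, at 5775 to 7801 CPM in control and 4462 to 8428 CPM in expanded libraries. Its highest value was that of expanded day 2 round 2, and outside the gate its mean was 1618 CPM in control and 2488 CPM in expanded libraries. Not all genes moved alike: Ifitm3, a membrane protein against viral entry, was at 2364 to 2866 CPM in control and 2789 to 3913 CPM in expanded libraries (log2 fold change 0.23, adjusted p 0.31 by edgeR). Iigp1 was at 1277, 1289.6, 1284, 647 and 1391 CPM in control and 575, 556, 360.0, 1279 and 340.2 CPM in expanded libraries, and again the day 2 round 2 pair went the other way (log2 fold change -1.08, adjusted p 0.10 by edgeR).

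H2-K1, a classical MHC class I heavy chain (chromosome 17, 33996017 to 34000347, minus strand), was at 1423, 1374, 1447, 1351 and 1852 CPM in control libraries. In expanded libraries it was at 1065, 1059, 997, 1012 and 931 CPM, below all controls. The log2 fold change was -0.62 ± 0.13 (SE; adjusted p 0.026 by edgeR). H2-T23, a non-classical class I chain (-1.12, adjusted p 0.027), and Psmb9, an immunoproteasome subunit (-1.0, adjusted p 0.017), also fell. All 13 tested class I genes had negative log2 fold changes, with a median of -0.69, and 3 of the 13 passed, against 1.00% lower over all genes tested. H2-K1 and H2-T23 passed in 4 of 10 fits with 1 library left out and Psmb9 in 5; the calls of all 3 were lost without control day 1 round 2, expanded day 1 round 2, expanded day 2 round 1 or either day 4 library, and those of the H2 genes also without expanded day 1 round 1. Over these fits H2-K1 ranged from -0.69 to -0.51, H2-T23 from -1.27 to -0.99 and Psmb9 from -1.09 to -0.88. Some class I heavy chain genes are close copies of each other, so their counts are uncertain. Without both expanded day 2 libraries the list's median was -0.64 and no class I gene passed. Outside the endothelial gate, H2-K1 averaged 1018 CPM in control and 778 CPM in expanded libraries.

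Of the heat shock and cold-inducible genes, 2 chaperones fell and both cold-inducible genes rose. Hspb1, a small heat shock protein that binds actin (chromosome 5, 135887919 to 135889563, plus strand), gave the smallest adjusted p of all genes tested. It was at 1225, 1079, 1398, 1099 and 1275 CPM in control libraries and 507, 519.8, 405, 363 and 448 CPM in expanded ones. The highest expanded library was below the lowest control library, with a log2 fold change of -1.50 ± 0.15 (SE; adjusted p 3.8e-04 by edgeR). Outside the endothelial gate the order of the means was the opposite, 222 CPM in control and 429.6 CPM in expanded libraries. Hspa1a, the stress-inducible HSP70, was at 581, 404, 340.5, 679 and 359 CPM in control and 167, 214, 152, 61.6 and 128 CPM in expanded capillary cells. It did not overlap (log2 fold change -1.72 ± 0.23 SE, adjusted p 0.0041 by edgeR), and it was also lower outside the gate, at 331 against 152 CPM. Hspa1a has a near-identical copy, Hspa1b, so its counts are uncertain between the copies.

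Rbm3, an RNA-binding protein induced by mild cold (chromosome X, 8138975 to 8145880, minus strand), was at 529.6, 379, 206, 382 and 333 CPM in control and 1089, 1211, 1243, 657 and 1035 CPM in expanded libraries. All expanded libraries lay above all controls, with a log2 fold change of 1.47 ± 0.19 (SE; adjusted p 0.0040 by edgeR). Cirbp, its cold-inducible relative, was at 43.5, 57.9, 21.3, 36.6 and 24.8 CPM in control and 141, 104, 72.7, 116 and 101 CPM in expanded libraries. Its ranges were apart too (log2 fold change 1.41 ± 0.22 SE, adjusted p 0.0055 by edgeR). Both were also higher in the expanded arm outside the gate, where the control and expanded means were 452 and 1250.4 CPM for Rbm3 and 37.4 and 121 CPM for Cirbp. With the rule applied after thinning, Hspb1 was at -1.05 (adjusted p 0.15) and Rbm3 at 1.23 (adjusted p 0.14) on the log2 scale. Of 13 heat shock and cold-inducible genes tested, 2 fell and 2 rose, each held in all 10 fits with 1 library left out, and the median was -0.55, against 1.00% lower and 0.714% higher over all genes tested. Among immediate early genes, Jun (-0.59, adjusted p 0.025) and Btg2 (-0.81, adjusted p 0.035) fell and none of 18 rose, with a median of -0.44, against 1.00% lower over all genes tested. The call for Jun was lost without either expanded day 1 library, control day 1 round 2 or expanded day 2 round 1 (range -0.69 to -0.54). Btg2 passed in 4 of 10 such fits, those without expanded day 1 round 2, control day 2 round 1, or either round 2 library of day 2 (range -0.93 to -0.68).

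Among the genes that rose, Slco2a1, the transporter that takes up prostaglandins (chromosome 9, 102988712 to 103096002, plus strand), was at 43.5, 64.8, 35.5, 128 and 57.9 CPM in control libraries. In expanded libraries it was at 209, 218, 457, 164 and 274 CPM, all above the controls. Slco2a1 had a log2 fold change of 1.88 ± 0.27 (SE; adjusted p 0.0049 by edgeR). With UMIs summed per hashed mouse it was among the 5 genes that passed (2.24, adjusted p 0.027 by edgeR). The expanded arm of that fit held a single mouse per library, of 38 cells in day 1 round 2, 12 in day 2 round 1 and 14 in day 4. No control mouse of day 2 round 1 reached the 10 cells required, and day 1 round 1 had no hashtags. In the same fit 38 of the 48 named genes lost their call, Hspb1 among them (adjusted p 0.24 by edgeR). Mcam, the adhesion molecule CD146 of endothelium and sprouting tips (chromosome 9, 44134469 to 44142727, plus strand), was at 55.3, 47.5, 28.4, 75.4 and 48.5 CPM in control and 195, 146, 128, 116 and 178 CPM in expanded libraries. It was apart in all libraries, with a log2 fold change of 1.51 ± 0.21 (SE; adjusted p 0.0046 by edgeR). Both passed over all blood endothelial cells, at 0.86 for Slco2a1 (adjusted p 0.017) and 1.39 for Mcam (adjusted p 9.2e-04). With the rule applied after thinning they were 2.16 (adjusted p 0.15) and 1.79 (adjusted p 0.15).

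Lrg1, a secreted leucine-rich glycoprotein that modulates TGF-β signalling in vessels (chromosome 17, 56119678 to 56122001, minus strand), was at 209, 296, 192, 265 and 291 CPM in control libraries and 591, 531, 1118, 848 and 569 CPM in expanded ones. The ranges were well apart (log2 fold change 1.39 ± 0.20 SE, adjusted p 0.0049 by edgeR). Lrg1 was higher in venular cells, with means of 1543 CPM in control and 2165 CPM in expanded libraries, and outside the gate its means were 3.73 and 56.3 CPM. Cmah, which hydroxylates sialic acid (chromosome 13, 24327404 to 24477377, plus strand), was at 15.8, 23.2, 0, 13.7 and 8.27 CPM in control and 79.2, 72.2, 125, 103 and 33.4 CPM in expanded libraries. It was higher in every expanded library, with a log2 fold change of 2.26 ± 0.32 (SE; adjusted p 0.0046 by edgeR). Ehd3, a protein of endosome recycling, was at 0, 9.26, 14.2, 25.1 and 3.55 CPM in control and 45.1, 31.0, 65.8, 95.8 and 14.5 CPM in expanded libraries. Only expanded day 4 fell within the control range (log2 fold change 2.03 ± 0.35 SE, adjusted p 0.011 by edgeR). These 3 genes were higher in control venular than in control capillary cells, and over all blood endothelial cells their log2 fold changes were smaller: 0.67 for Lrg1 (adjusted p 0.027), 0.69 for Cmah (adjusted p 0.021) and 0.26 for Ehd3 (adjusted p 0.64).

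The summed levels of the 9 venous markers outside the rule did not overlap between the arms of the capillary cells (at most 1123 CPM in control and at least 1574 CPM in expanded libraries), against 4836 to 5799 and 3388 to 5218 CPM in venular cells. Of 6 venous markers tested, 2 rose (Lrg1 and Csf2rb, a shared cytokine receptor chain) and none fell, with a median of 0.52, against 0.714% higher over all genes tested. Csf2rb was at 257, 203, 269.6, 235 and 252 CPM in control and 444, 435, 564, 609 and 298 CPM in expanded libraries, with no overlap. Its log2 fold change of 0.84 (adjusted p 0.025 by edgeR) became 0.35 (adjusted p 0.096) over all blood endothelial cells, and was lost without either expanded day 1 library, control day 1 round 2 or expanded day 2 round 1 (range 0.71 to 1.01). Vwf (0.06) and Nr2f2 (-0.65) did not pass. The part that deeper expanded cells near the Rbp7 limit played in these values was not tested, beyond the values with the rule applied after thinning, where Lrg1 was 0.69 (adjusted p 0.30) and Csf2rb 0.56 (adjusted p 0.56).

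Further higher genes covered protease inhibition, endosomes and metabolism. Ctla2a, a cysteine protease inhibitor, was at 1628, 2032, 1022, 2297 and 1944 CPM in control and 2602, 4070.5, 5303, 3455 and 4617 CPM in expanded libraries. The ranges did not overlap (log2 fold change 1.09 ± 0.20 SE, adjusted p 0.014 by edgeR), and its near-identical copy Ctla2b rose by a like amount (1.12, adjusted p 0.011), with reads uncertain between them. The call for Ctla2a was lost without expanded day 2 round 1 or either day 4 library (range 0.93 to 1.23). Rab5c, a GTPase of early endosomes, was at 217, 191, 156, 203 and 201 CPM in control and 691, 583, 581, 410.4 and 284 CPM in expanded libraries. No library of the arms overlapped (log2 fold change 1.27 ± 0.19 SE, adjusted p 0.0049 by edgeR). Ecscr, an endothelial surface protein, rose from a mean of 349 ± 29.0 CPM (SD, n = 5) to 630.0 ± 101 CPM (SD, n = 5; adjusted p 0.015 by edgeR, fitted over all genes). Ece1, which makes active endothelin, went from 479 ± 56.8 to 779 ± 104 CPM (SD, n = 5 each; adjusted p 0.021 by edgeR). Ecscr lost its call without expanded day 2 round 1 or either day 4 library (range 0.67 to 0.85), and Ece1 kept it only without expanded day 1 round 1, control day 2 round 1, or either round 2 library of day 2 (range 0.60 to 0.67).

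The remaining genes named by the size of their change fell into no list. Ncoa7, a stress-linked nuclear coactivator, was at 146, 183, 284, 123 and 230.4 CPM in control and 72.4, 80.0, 34.6, 75.2 and 95.6 CPM in expanded libraries. The arms did not overlap (log2 fold change -1.44 ± 0.26 SE, adjusted p 0.012 by edgeR; 10 of 10 fits with 1 library left out). Efnb1, the ephrin-B1 ligand (-1.28, adjusted p 0.032), Kctd12b (-1.60, adjusted p 0.011) and AW112010 (-1.35, adjusted p 0.021) fell as well. Olfml2a, a secreted olfactomedin-like protein (1.43, adjusted p 0.014), AA467197 (1.35, adjusted p 0.027), Mrpl2 of the mitochondrial ribosome (1.22, adjusted p 0.025) and Nhp2 of small nucleolar ribonucleoproteins (1.20, adjusted p 0.020) rose. Over the fits that left out 1 library, Kctd12b passed in 9 (not without control day 1 round 2), AW112010 and Nhp2 in 7, Olfml2a and AA467197 in 6, Efnb1 in 4 and Mrpl2 in 3. Losses of the latter 6 came most often without expanded day 2 round 1, which ended all of them, and the log2 fold changes kept their sign in every such fit.

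The glycolysis gene Pkm was at 277, 244, 255, 349.6 and 342 CPM in control and 629.7, 596, 637, 472 and 494 CPM in expanded libraries. It was apart in all libraries (log2 fold change 0.89 ± 0.16 SE, adjusted p 0.012 by edgeR), and lost only without control day 1 round 2 or expanded day 2 round 1 (range 0.80 to 0.99). Gapdh, an enzyme of the same pathway, went from 642 ± 30.0 to 983 ± 113 CPM (SD, n = 5 each; adjusted p 0.047 by edgeR), and passed in 1 of 10 fits with 1 library left out, that without expanded day 2 round 2 (range 0.50 to 0.63). Outside the gate, Pkm averaged 269 and 639 CPM and Gapdh 479.6 and 898 CPM in control and expanded libraries. Of 20 tested genes of glycolysis and hypoxia, these 2 rose and none fell, with a median of 0.07, against 0.714% higher over all genes tested.

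**Figure D3:**
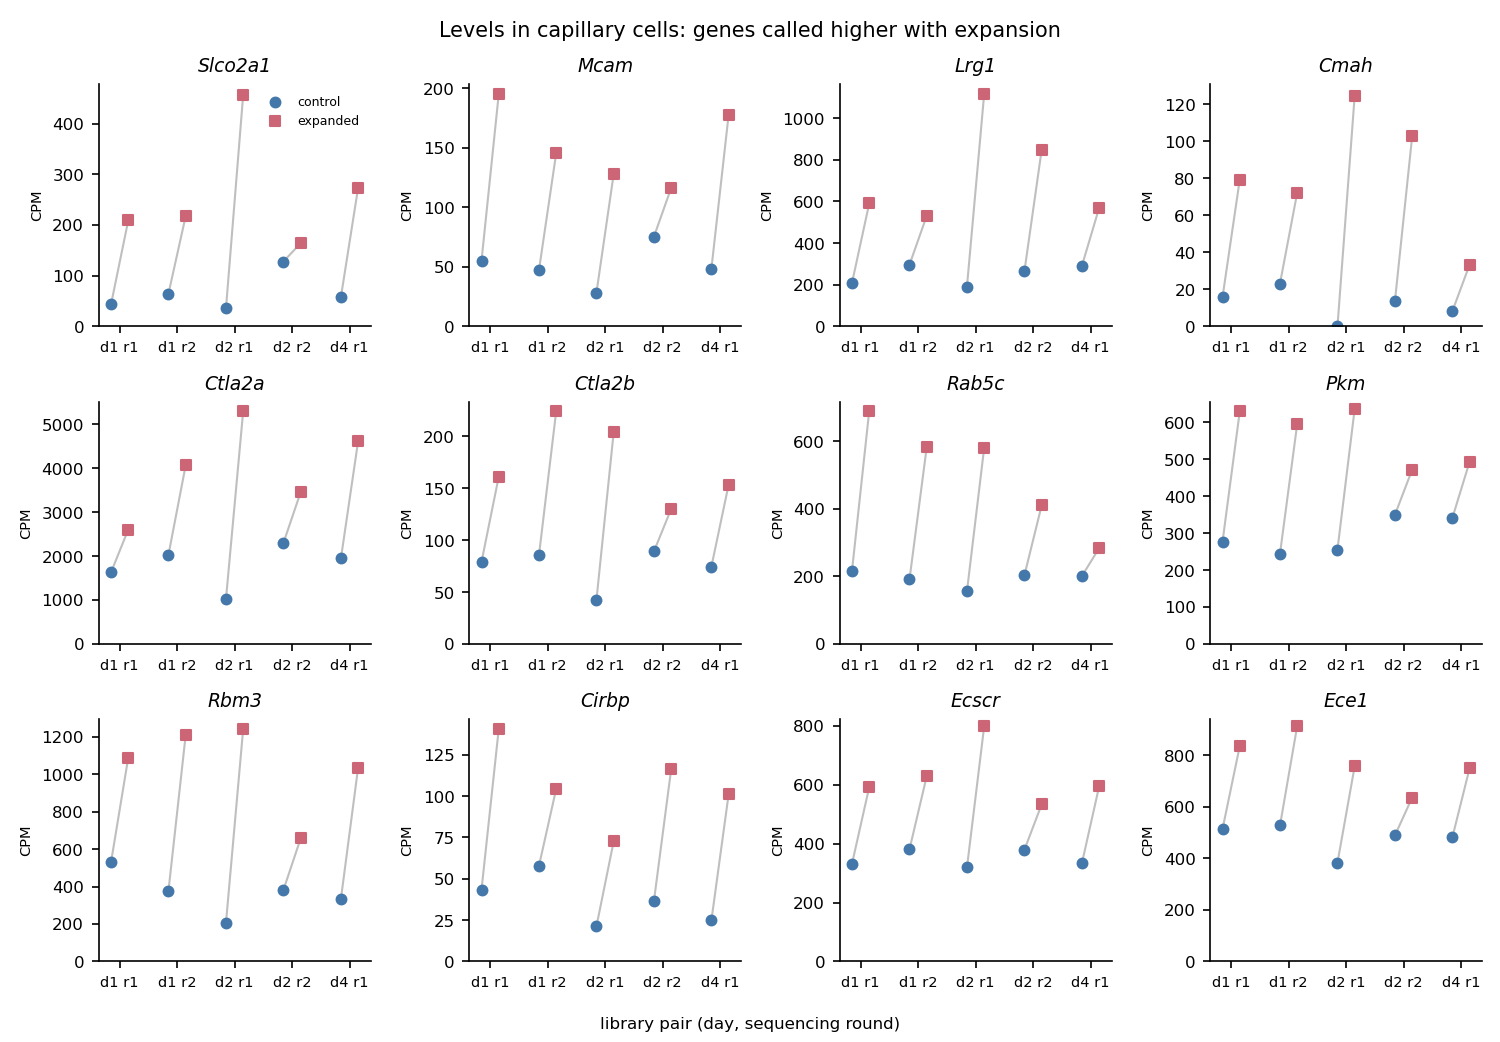
Level of 12 genes that rose (CPM of the summed UMIs of capillary cells) in the 5 control libraries (circles) and 5 expanded libraries (squares), with lines joining libraries of the same day and round. All 5 expanded libraries lie above all 5 control libraries for each of the 12 genes.

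Sprouting genes as a group did not move together. Of 15 tested tip cell genes, Mcam rose and none fell, with a median of -0.03 (0.714% higher over all genes tested). Angpt2, a destabilising ligand of TIE2, was at 27.7, 8.10, 21.3, 11.4 and 9.45 CPM in control and 122, 9.03, 79.6, 13.7 and 21.1 CPM in expanded libraries, high in the expanded round 1 libraries of days 1 and 2 (log2 fold change 1.85, adjusted p 0.16 by edgeR). Apln, the apelin peptide of tip cells, had 0 to 7.09 CPM in control and 0 to 47.8 CPM in expanded libraries and was too low to be tested. Dll4, the Notch ligand of tip cells, had a log2 fold change of 0.47 (adjusted p 0.26). Among 11 tested cell cycle genes none passed, with a median of 0.12, and Mki67 was at 0 to 59.3 CPM in control and 0 to 86.7 CPM in expanded libraries.

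Lists tied to mechanical load had no gene that passed: 12 stretch-sensing and YAP/TAZ genes (median -0.02) and 22 actin and SRF genes (median 0.09). Piezo1, a stretch-gated channel, was at 38.8 to 108 CPM in control and 61.6 to 90.0 CPM in expanded libraries (log2 fold change 0.05 ± 0.23 SE). Of 14 genes of flow response and vascular tone, Ece1 rose (0.714% higher over all genes tested). Nos3, endothelial nitric oxide synthase, was at 142, 94.9, 99.3, 91.4 and 68.5 CPM in control and 197, 175, 183, 123 and 138 CPM in expanded libraries, and just missed the threshold (log2 fold change 0.73 ± 0.19 SE, adjusted p 0.058 by edgeR). No gene passed among 16 basement membrane, 14 NF-kappaB feedback, 13 BMP and TGF-beta, 9 glucocorticoid and 7 leukocyte adhesion genes, with medians of 0.10, -0.37, -0.22, -0.31 and -0.09. Icam1, the leukocyte adhesion molecule, was at 688, 406, 383, 434 and 383 CPM in control and 281, 338, 661, 547 and 829 CPM in expanded libraries (log2 fold change 0.06, adjusted p 0.95 by edgeR). It was lower in the expanded arm on day 1 and higher on days 2 and 4, but no gene passed the test of day 1 against later days given below. Control day 1 round 1, at 688 CPM, stood apart from the other control libraries. The venular adhesion genes Vcam1 (0 to 35.9 CPM in control, 0 to 13.3 CPM in expanded libraries) and Cytl1 (at most 4.10 CPM in any library) were too low to be tested. A p that misses the threshold does not show that the arms were alike.

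**Figure D4:**
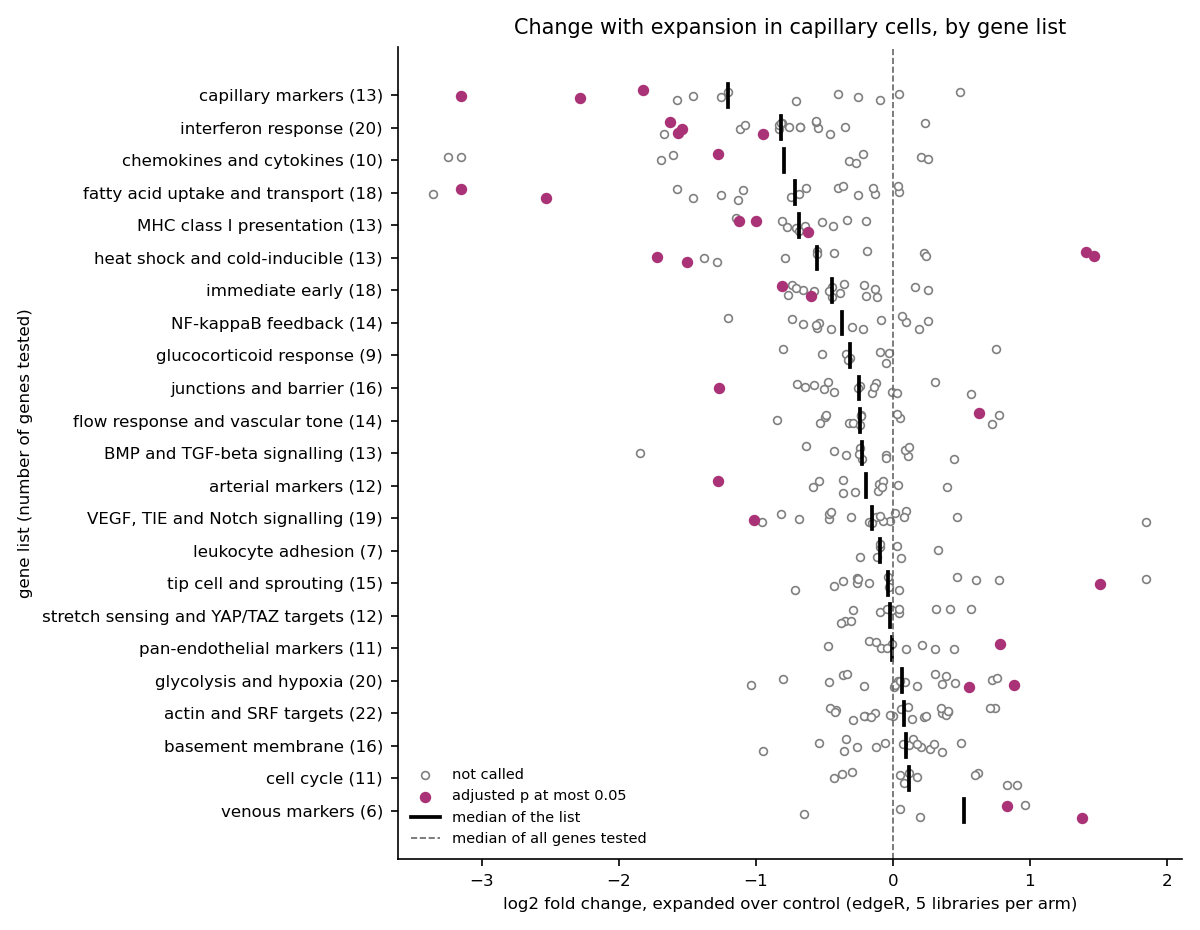
Log2 fold change (expanded over control) of every tested gene of each gene list with at least 6 tested genes, 1 point per gene; filled points passed edgeR's test at an adjusted p of at most 0.05. Vertical ticks are list medians, and the dashed line is the median of all 6299 genes (0.00); capillary markers (-1.20) and interferon genes (-0.81) lie to the left of it and venous markers (0.52) to the right.

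Some lower genes had higher levels outside the endothelial gate than in the capillary cells. Col3a1, a collagen of fibroblasts, was at 221, 189, 525, 45.7 and 298 CPM in control capillary cells and 30.0, 9.03, 6.92, 41.0 and 7.78 CPM in expanded ones (log2 fold change -3.95, adjusted p 0.0050 by edgeR). Outside the gate it averaged 13099 and 2593 CPM, lower in the expanded arm there too. Cd74, the MHC class II invariant chain of antigen-presenting cells, was at 63.2, 52.1, 35.5, 187 and 305 CPM in control and 15.02, 7.74, 10.4, 20.5 and 48.9 CPM in expanded capillary cells (log2 fold change -2.68, adjusted p 0.0021 by edgeR). It averaged 5022 and 2344 CPM outside the gate. In 12 of the lower and 10 of the higher genes, the level in capillary cells of the arm with more was below that outside the gate; the part that free RNA played in them was not tested.

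The effect of expansion was then compared between day 1 and days 2 and 4 joined. No gene passed (0.00% of 6299) by edgeR's interaction test, with a smallest adjusted p of 0.82 and 229 genes at an unadjusted p under 0.05. With no filter on low counts 16 genes passed, and leaving out 1 library gave at most 1 gene (without control day 2 round 2). Among the 6 later libraries, the 2 expanded ones of day 2 held 18 and 11 capillary cells.

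The last comparison asked whether expansion acted differently on capillary and venular cells of the same libraries, with the library as a block over 9 libraries. The expanded library of day 2 round 2 held 7 venular cells and was not fitted, though its levels are given. Of 7137 genes, 18 (0.252%) passed edgeR's test of the difference, 10 with a larger log2 fold change in capillary cells and 8 with a smaller one. Without control day 4 the count was 2, without control day 1 round 2 it was 3, without control day 2 round 2 it was 30, and with cells thinned to 2000 UMIs it was 1.

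Mgp, matrix Gla protein, an inhibitor of calcification, showed the widest difference. In venular cells it was at 86.6, 125, 143, 328 and 128 CPM in control libraries and 0, 0, 0, 16.2 and 14.6 CPM in expanded ones, while in capillary cells it was at 119, 23.2, 0, 84.6 and 8.27 CPM and 311, 192, 10.4, 0 and 138 CPM. Venular ranges were apart and capillary ranges overlapped (difference in log2 fold change 6.76 ± 0.78 SE, adjusted p 4.6e-04 by edgeR). Gdf15, a stress-induced secreted factor, was at 648, 342, 461, 599 and 298 CPM in control and 199, 149.6, 3.46, 6.84 and 639 CPM in expanded capillary cells. Venular cells had 6.82 to 140.3 CPM in control and 0 to 6.74 CPM in expanded libraries (difference 3.50 ± 0.67 SE, adjusted p 0.030 by edgeR). Foxp1, a transcription factor, was level in capillary cells, at 199 to 277 CPM in control and 211 to 298 CPM in expanded libraries. In venular cells it went from 246 to 367 CPM down to 101 to 198 CPM, with no overlap (difference 1.08 ± 0.19 SE, adjusted p 0.022 by edgeR). Igfbp4 (1.63), the integrin subunit Itgb4 (1.56) and Tes (1.35), a focal adhesion protein, differed in the same direction.

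In the other direction, Gpihbp1 was level in capillary cells and higher in expanded venular cells. There it was at 26.4, 47.1, 6.82, 26.9 and 45.6 CPM in control and 60.2, 153, 30.2, 113 and 135 CPM in expanded libraries. The ranges overlapped through expanded day 2 round 1, and even the highest venular value lay below the lowest capillary one, 164 CPM (difference -1.70 ± 0.33 SE, adjusted p 0.030 by edgeR). Lamb1, a laminin chain of basement membranes, was at 57.1 to 135 CPM in control and 48.5 to 95.8 CPM in expanded capillary cells, and at 20.5 to 35.3 and 41.4 to 108 CPM in venular cells. Only the venular ranges were apart (difference -1.65 ± 0.30 SE, adjusted p 0.022 by edgeR). Nrarp, a feedback inhibitor of Notch, was at 66.3 to 99.6 CPM in control and 20.5 to 83.8 CPM in expanded capillary cells, and at 7.53 to 34.1 and 39.3 to 63.8 CPM in venular cells (difference -1.60 ± 0.32 SE, adjusted p 0.039 by edgeR). Fscn1 (-2.32), an actin-bundling protein, Fut8 (-2.60), a fucosyltransferase, and the monocyte chemokine Ccl2 (-2.82) differed in this direction too. Ccl2 was at 11.4 to 187 CPM in control and 0 to 50.3 CPM in expanded capillary cells. In venular cells it was at 49.0, 44.6, 0, 17.9 and 259 CPM in control and 45.1, 247, 658, 16.2 and 182 CPM in expanded libraries. The venular ranges overlapped, the highest value was that of expanded day 2 round 1, and expansion alone did not pass in venular cells (adjusted p 0.16 by edgeR).

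**Figure D5:**
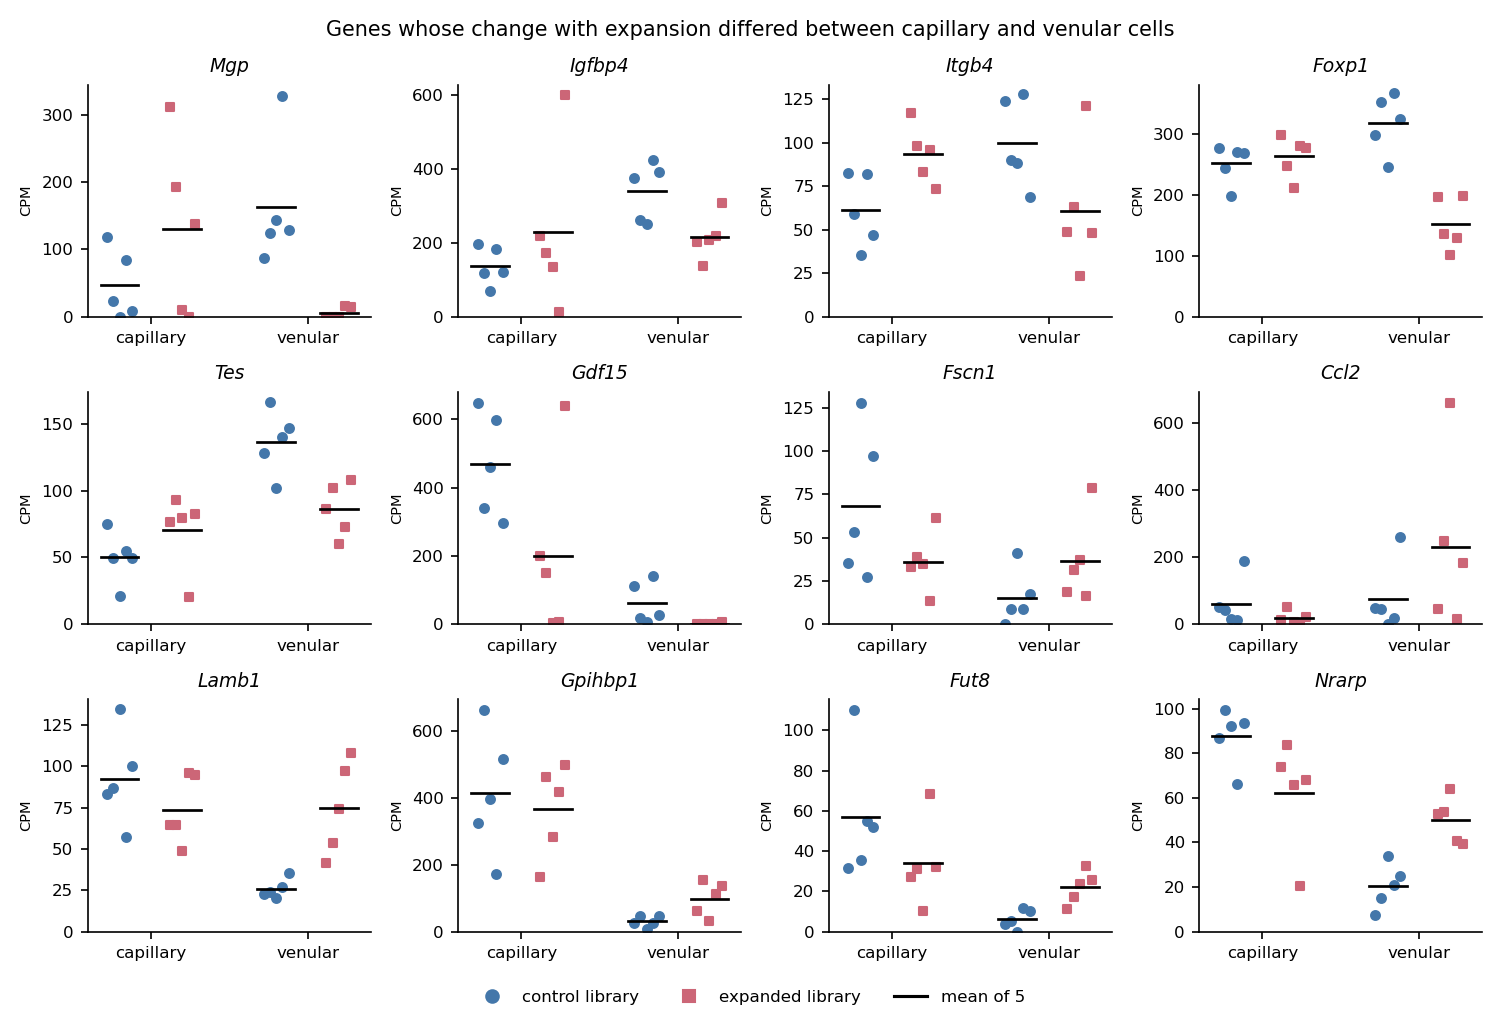
Level of 12 genes whose response to expansion differed between capillary and venular cells (CPM of summed UMIs), with 1 point per library and horizontal lines for the mean of 5, by cell type and arm. Mgp and Foxp1 lie lower in expanded than in control venular cells, and Gpihbp1, Lamb1 and Nrarp lie higher there, while the capillary levels of the arms overlap.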

How the data were processed

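The authors deposited raw UMI counts per gene and cell barcode, with no normalization. The submitters' processing notes name Cell Ranger 6.1.2 and mm10. The 18 samples comprise 10 mRNA libraries and 8 hashing samples that hold antibody lists only. From the counts of 32285 genes, 47251 of 55174 barcodes were kept: those that reached 200 genes and 500 UMIs and whose mitochondrial share did not exceed 10%. The capillary rule, the gene lists and the tests were chosen with earlier results of these data known. Doublets called by Scrublet (scanpy 1.11.5) marked 10 of the 643 cells and were left in.

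UMI counts were summed over the capillary cells of each library, then fitted in edgeR 4.0.16 (R 4.3.3; filterByExpr, TMM scaling) with a term for day, using quasi-likelihood tests and Benjamini-Hochberg adjustment. The 13 genes of the rules stayed in the fit without a call. Interactions with time and with cell type (library as block) used the same settings. Replicates are libraries, each a pool of mice, so the p-values measure the spread between pools. Depth sets the precision of a level: 140970 to 899354 UMIs per library.

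Genes were named by a rule: the 12 largest rises and falls among those that passed in the same direction in all 5 pairs, at a mean of at least 50 CPM and above the level outside the endothelial gate in the higher arm. Up to 4 more per gene list with the smallest p were added, up to 6 in each direction for the interactions, and Cd36, Fabp4, Gpihbp1, Cytl1, Sele, Vcam1 and Icam1 whatever their p. Other genes named beside them (such as Nos3, Angpt2, Dll4, Piezo1, Ifitm3, Iigp1, Pparg and Tcf15) were chosen after their values were seen. Positions are from GENCODE on mm10, for 48 of 48 named genes matched by identifier. Libraries of the arms share day and sequencing round. Over 2000 genes, the deviations of paired libraries correlated at 0.282, 0.118, 0.0503, -0.0313 and 0.405, so not every pair exceeded 0.1, and 2 of 5 pairs matched their own partner best. The alternatives were another scaling, no filter, thinning, other limits of the rule, DESeq2 1.42.0, sums per mouse and leaving out libraries. Values with the rule after thinning, over all blood endothelial cells and without the expanded day 2 libraries were added after seeing the data.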

Additional observations from a re-analysis of the deposited data

Results flagged for a closer look

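Among the 5 libraries of an arm, 4 gene levels in capillary cells stood apart from the other 4 libraries, of 96 groups looked at; chance alone gives about 1 in 20. Gbp5 was at 47.9 CPM in expanded day 2 round 2 against 13.8 to 23.4 CPM in the other expanded libraries. Mrpl2 was at 45.7 CPM in control day 2 round 2 against 14.2 to 21.3 CPM. H2-K1 was at 1852 CPM in control day 4 against 1351 to 1447 CPM. Icam1 was at 688 CPM in control day 1 round 1 against 383 to 434 CPM.

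The effect of expansion differed between capillary and venular cells, by edgeR's test of the difference itself, for 12 named genes. The log2 difference, capillary minus venular, was 6.76 for Mgp, 3.50 for Gdf15, 1.63 for Igfbp4, 1.56 for Itgb4, 1.35 for Tes and 1.08 for Foxp1. It was -1.60 for Nrarp, -1.65 for Lamb1, -1.70 for Gpihbp1, -2.32 for Fscn1, -2.60 for Fut8 and -2.82 for Ccl2.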

How the results depend on the processing

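The count of genes that differed between the arms was 108. It was 476 with no low-count filter, 37 with each cell thinned to 2000 UMIs, 204 with Rbp7 at 1 UMI or more, 251 with no limit on Ackr1 and Selp, 197 with DESeq2's Wald test and 5 with sums per mouse. With each cell thinned, 8 named genes lost their call: Gbp2, Ctla2b, Ecscr, AW112010, Ece1, H2-K1, Irf1 and Gapdh. Some other named genes were then too low to be tested. Of the alternatives added after seeing the data, the rule applied after thinning gave 3, all blood endothelial cells 881, and leaving out both expanded day 2 libraries 35. Leaving out 1 library gave 36 (without expanded day 2 round 1) to 214 (without control day 2 round 2). It gave 38 without control day 1 round 2, 48 without either day 4 library, 50 without expanded day 1 round 2 and 67 without expanded day 1 round 1. With a replicate block for the pairing of day and round the count was 135, and none of the 48 named genes changed its call. The samples share only a day and a sequencing round, so the block is a check on numbering.

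For the time comparison the count was 0, with 16 under no filter and 0 to 1 with 1 library left out. The capillary against venular count was 18, with 143 under no filter, 1 after thinning to 2000 UMIs and 2 to 30 with 1 library left out.

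The direction of Gpihbp1 turned without expanded day 1 round 1 (0.015) and without control day 1 round 2 (0.034), from -0.26, and ranged from -0.51 to 0.034 with 1 library left out. Icam1, at 0.06, was -0.0045 after thinning, -0.20 with Rbp7 at 3 UMIs or more, -0.0084 with no Ackr1 and Selp limit, -0.34 with the rule after thinning, -0.42 over all blood endothelial cells, -0.25 without both expanded day 2 libraries, -0.75 per mouse, and -0.22 to 0.30 with 1 library left out. The other 46 named genes kept their direction under every alternative that tested them. The cause of these moves was not tested.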

Other observations

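Chemokine and cytokine genes other than Cxcl12 did not pass edgeR's test in capillary cells. Of 10 tested, Cxcl12 fell and none rose, and the median log2 fold change was -0.80, against 1.00% lower over all genes tested. Isg15, an interferon-induced ubiquitin-like protein, was at 336, 310.3, 922, 261 and 412 CPM in control and 189.8, 112, 138, 649.9 and 128 CPM in expanded libraries. Its highest control value came from day 2 round 1 and its highest expanded value from day 2 round 2 (log2 fold change -1.11, adjusted p 0.15). Klf2, a transcription factor induced by laminar flow, was at 905, 972, 837, 1773 and 1117 CPM in control and 1048, 868, 786, 519.9 and 892 CPM in expanded libraries, with overlapping ranges (log2 fold change -0.49, adjusted p 0.23).

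Lpl, lipoprotein lipase, was at 383 CPM in control day 2 round 1, the library with adipocyte markers, against 19.8 to 32.4 CPM in the other control libraries. It was at 0 to 10.9 CPM in expanded libraries (log2 fold change -3.36, adjusted p 0.057 by edgeR). The summed fatty acid list was 8981 to 34904 CPM in control and 4121 to 18456 CPM in expanded capillary cells, and 14567 to 24341 and 5539 to 12753 CPM in venular cells. In venular cells the ranges of the arms did not overlap.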
